A study of Bos taurus with 3 samples.

Results

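The microbe sensing receptors described here are 10 genes, TLR2, TLR3, TLR4, TLR5, TLR6, CD14, LY96, MYD88, NOD1 and NOD2, out of 27270 genes counted in each library. They were chosen by gene symbol, as genes whose products sense bacteria or viral RNA or pass that signal on, and not by their measured level. Each symbol matched 1 gene, and all 10 had at least 1 unique molecular identifier (UMI, the tag that marks 1 captured transcript) in the kept cells of every calf. The libraries were made from the rumen, the large forestomach in which cattle later ferment feed, of 3 Holstein calves taken 1 day after birth. Tissue came from the ventral sac with the outer muscle layers stripped off and it was digested with EDTA, trypsin and a mixture of collagenase, dispase, hyaluronidase and DNase. Each calf gave 1 droplet library (10x 3′ chemistry), the calves shared breed, age and handling, and no calf of another age or treatment was used here. A value therefore belongs to 1 animal and 1 library, and a difference between calves has no replicate.

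Toll-like receptors (TLRs) are membrane receptors that bind conserved microbial molecules. TLR4 binds bacterial lipopolysaccharide together with the secreted protein MD-2 (the product of LY96) and is loaded by CD14; TLR2 pairs with TLR6 or TLR1 on bacterial lipopeptides, TLR5 binds flagellin, and TLR3 binds double-stranded RNA in endosomes. MYD88 is the adaptor used by TLR2, TLR4, TLR5 and TLR6 but not by TLR3, and NOD1 and NOD2 are cytosolic sensors of peptidoglycan fragments. In stratified and gut epithelia these genes are known from both the lining cells and the resident myeloid cells.

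Barcodes with 500 to 4000 detected genes were used, and after doublet removal 4695, 9746 and 9601 cells remained in calves 1, 2 and 3, with a median of 10190, 6498.5 and 7404 UMIs per cell. Cells were clustered without the 10 genes and without the wider sensing genes listed further on, so that none of them defined a class. Marker genes gave 21148 epithelial, 1316 endothelial, 777 fibroblast (with myofibroblast or mural cells) and 800 immune cells. Calf 1 held only 78 endothelial, 23 fibroblast and 9 immune cells, and calf 2 only 75 immune cells. Summed immune markers were 50.5 to 76.8 CPM in endothelial sums against 4382 to 4909 in immune sums. Summed epithelial markers reached 11067 CPM in the fibroblast sum of calf 1, against 2092 and 1203 in calves 2 and 3. The epithelial sum of calf 1 had 18547. Fibroblast values of calf 1 thus come from a sum rich in epithelial transcripts. The calf pairs 1 and 2, 1 and 3, and 2 and 3 shared 9, 17 and 25 kept cell barcodes.

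Levels are given as counts per 1000000 UMIs (CPM), the UMIs of a gene scaled to that many UMIs summed over the cells of a class in 1 calf, with exact 95% Poisson intervals where one is printed. Shares are the percentage of cells with at least 1 UMI. Intervals and detection limits (3 UMIs in a sum) cover counting error only. Cell classes were compared on summed counts with the edgeR quasi-likelihood test, in which each calf was a block, and p-values were adjusted over 11560 genes by the Benjamini-Hochberg method, past at 0.05. Calf 1's immune sum was left out of the fit because it held fewer than 10 cells, so every immune comparison rested on calves 2 and 3. Levels are compared between cells for 1 gene at a time, not between genes, because the chemistry captures transcript ends.

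The immune sums stood apart most often. Against epithelium, 8 of the 10 genes were higher in immune cells and none was lower, where 45.7% of all genes tested passed in either direction (22.2% higher). Against epithelium, endothelial cells had 5 genes higher and 1 lower, with 46.0% of all genes past the test, and fibroblasts had 3 higher and 1 lower, with 36.9% past the test. Against the mean of endothelial cells and fibroblasts, 7 genes were higher in immune cells and none was lower, with a background of 34.7%. Between endothelial cells and fibroblasts 1 gene was higher and 1 lower, with a background of 26.6%. The median log2 difference of the 10 genes was 2.53 for immune against epithelial cells, 0.74 for endothelial and 0.52 for fibroblasts, beside −0.11, −0.02 and −0.07 over all genes tested. DESeq2 size factors moved the all-gene median of the immune comparison up by 0.16 to 0.05.

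**Figure D1:**
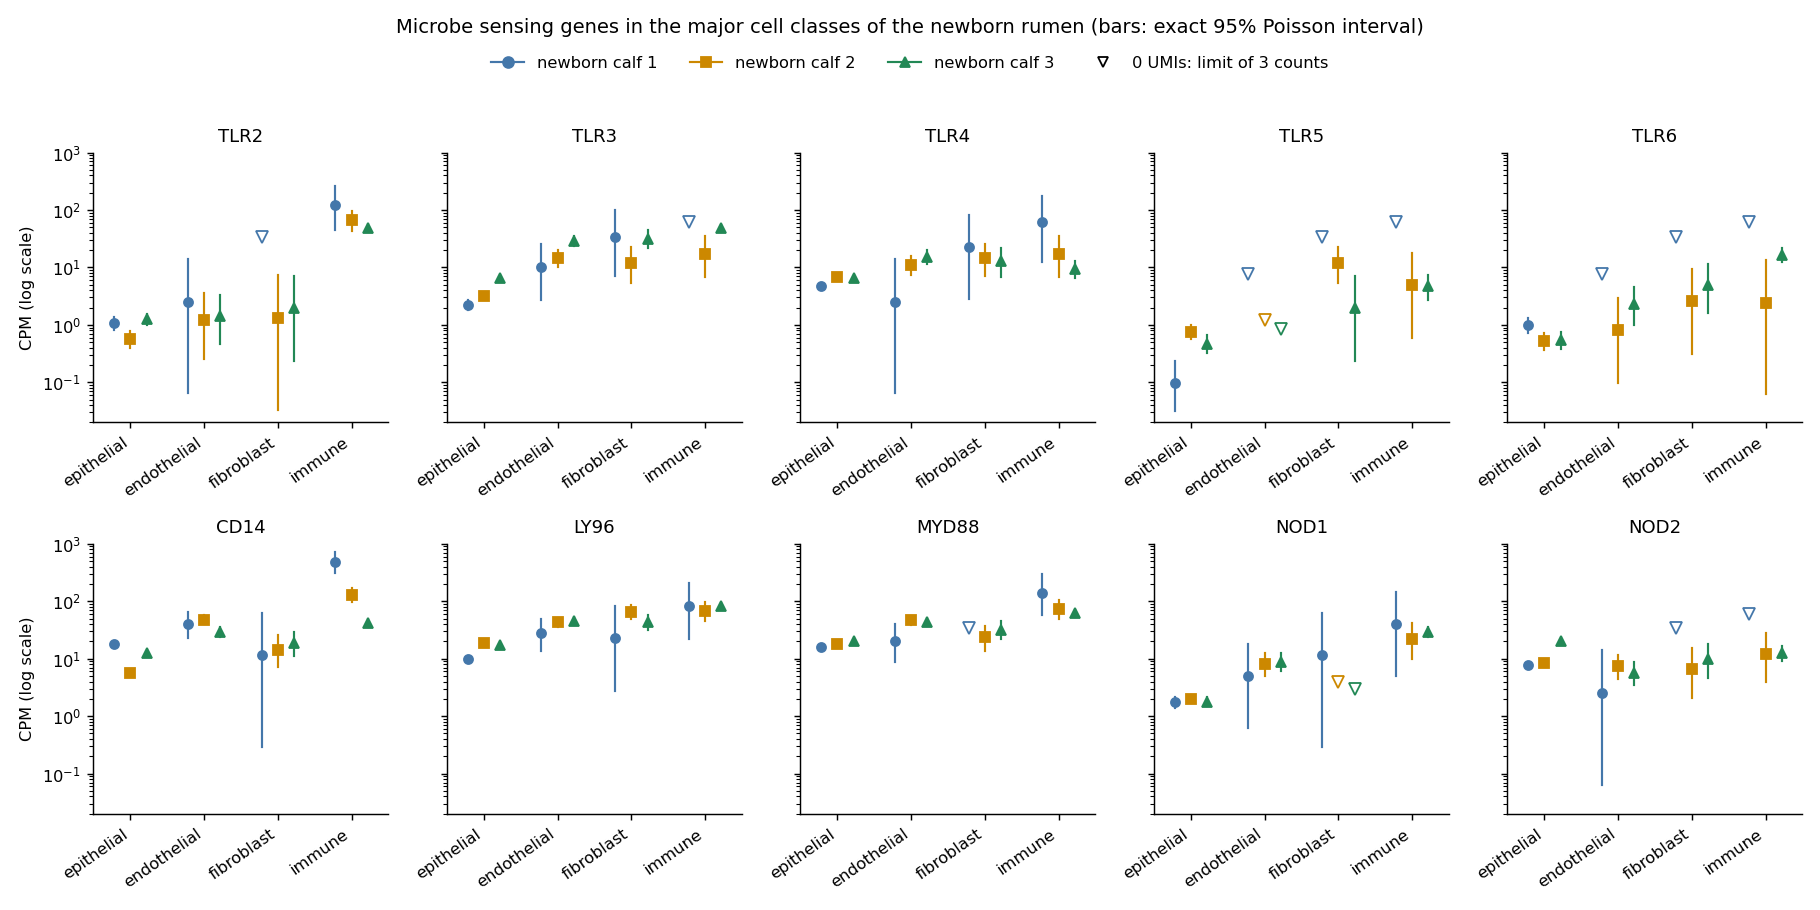
CPM (log scale) of each of the 10 genes in epithelial, endothelial, fibroblast and immune cells of the 3 calves, with exact 95% Poisson intervals as bars and open triangles at the limit of 3 counts where no UMI was found. TLR2 lies above 49 CPM in all immune sums and below 3 in every other sum that held a UMI. Calf 1's fibroblasts held no TLR2 UMI and are drawn at their limit. TLR4 overlaps between endothelial, fibroblast and immune cells and lies above every epithelial value in fibroblasts and immune cells.

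TLR4, the signalling receptor for lipopolysaccharide, was found in every class of every calf. In epithelial cells TLR4 was at 4.80, 6.71 and 6.42 CPM in calves 1, 2 and 3. In endothelial cells the values were 2.53, 11.03 and 15.1, and in fibroblasts 22.8, 14.3 and 12.7. Immune cells had 60.8, 17.1 and 9.40, of which the first rests on 3 UMIs in 9 cells. No class was highest in all calves, as the immune sum led in calves 1 and 2 and the endothelial sum in calf 3, and intervals of neighbours in the order overlapped in each calf. All fibroblast and immune sums nevertheless lay above every epithelial sum, whereas endothelial and epithelial sums overlapped. The intervals were clear of the epithelial one for immune cells in calf 1 and for endothelial cells in calf 3. TLR4 passed the edgeR test in none of the 5 class comparisons, and its log2 difference between immune and epithelial cells was 0.45 ± 0.43 (SE; adjusted p = 0.418). Cells with a TLR4 UMI made up 5.11% of epithelial, 5.55% of endothelial, 3.35% of fibroblast and 4.25% of immune cells. After thinning to 2000 UMIs per cell, with shallower cells left out, these shares were 1.24%, 2.55%, 3.38% and 1.28%. Thinned shares thus cover fewer cells, mostly so in fibroblasts, whose median was 2081 UMIs.

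LY96, which encodes the lipopolysaccharide-binding partner of TLR4, was lower in epithelium than in the 3 other classes. Epithelial LY96 was at 10.1, 18.4 and 17.3 CPM, and endothelial LY96 at 27.8, 42.9 and 44.7. Fibroblasts had 22.8, 66.4 and 44.0, and immune cells 81.1, 68.3 and 84.3. Each of these sums lay above every epithelial sum, so the groups did not overlap. By the edgeR test the log2 difference from epithelium was 0.94 ± 0.22 in endothelial cells (adjusted p = 0.00233), 1.15 ± 0.25 in fibroblasts (adjusted p = 0.00172) and 1.86 ± 0.25 in immune cells (adjusted p = 1.66e-05). Immune cells also exceeded the mean of endothelial cells and fibroblasts by 0.82 ± 0.23 (adjusted p = 0.0103). The fibroblast call was lost without calf 2 (0.91, adjusted p = 0.0868), and the immune call against the other stroma was lost without calf 3 (adjusted p = 0.588). A LY96 UMI was present in 29.1% of immune cells, 18.2% of endothelial, 11.6% of fibroblast and 12.5% of epithelial cells. At 2000 UMIs per cell the shares were 13.2%, 7.91%, 10.9% and 3.18%.

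CD14, which hands lipopolysaccharide to TLR4 and MD-2, was higher in endothelial and immune cells than in epithelium. In epithelium CD14 was at 18.4, 5.69 and 12.4 CPM, a spread of 3.22-fold between calves. Endothelial cells had 40.4, 47.8 and 29.6, all above the epithelial values. Fibroblasts had 11.4, 14.3 and 18.6, within or just past the epithelial range. Immune cells had 487, 129 and 42.0 and did not overlap with epithelium. Macrophage-like cells, described further on, held 215 of the 229 immune CD14 UMIs. They made up 5 of 9, 15 of 75 and 92 of 716 immune cells in calves 1, 2 and 3. The edgeR log2 difference from epithelium was 1.44 ± 0.37 in endothelial cells (adjusted p = 0.00499) and 2.54 ± 0.44 in immune cells (adjusted p = 0.000214). Without calf 2 the endothelial difference was 0.81 and no longer passed (adjusted p = 0.0577). Fibroblasts differed by 0.23 ± 0.53 (adjusted p = 0.790). CD14 was also higher in immune cells than in the mean of endothelial cells and fibroblasts, by 1.70 ± 0.42 (adjusted p = 0.00471). Without calf 2 or without calf 3 only 1 immune sum was left, and the immune differences moved. The difference from epithelium was 1.56 without calf 2 and 3.73 without calf 3, and that from the other stroma 1.17 and 2.62. Endothelial cells with a CD14 UMI made up 14.1%, above the 8.62% of immune cells, although the immune CPM was higher in each calf.

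TLR2, the receptor for bacterial lipopeptides, differed most between immune cells and the rest. Immune TLR2 was at 121.7, 65.8 and 49.2 CPM in calves 1, 2 and 3. Epithelial TLR2 was at 1.07, 0.561 and 1.26, so that the immune level was 114, 117 and 39.1 times higher within the 3 calves. Endothelial cells had 2.53, 1.23 and 1.42 and fibroblasts 0, 1.30 and 1.96. The immune sums did not overlap with any other class. The edgeR log2 difference was 5.66 ± 0.42 against epithelium (adjusted p = 3.60e-08; 6.46 without calf 3) and 5.34 ± 0.44 against the mean of endothelial cells and fibroblasts (adjusted p = 1.65e-07). In counts summed over calves, immune TLR2 was 36.5 times the endothelial level (95% interval 18.9 to 81.0, 211 against 9 UMIs) and 32.4 times the fibroblast level (10.9 to 158, 211 against 3 UMIs). Cells with a TLR2 UMI made up 18.9% of immune and 0.794% of epithelial cells, or 8.12% and 0.179% after thinning. Endothelial cells and fibroblasts did not pass the test against epithelium, with log2 differences of 0.27 ± 0.56 (adjusted p = 0.768) and 0.38 ± 0.88 (adjusted p = 0.807).

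TLR6, a partner of TLR2, was also higher in immune cells, on 200 UMIs in all kept cells. TLR1 was not analysed here. TLR6 has close relatives (TLR1 and TLR10), so reads shared between them could have been assigned to TLR6 or dropped. Immune cells had 0, 2.44 and 16.6 CPM of TLR6, and epithelial cells 0.988, 0.516 and 0.541. Calf 1's immune sum of 9 cells allows no statement, since its limit of 3 UMIs lies above every other TLR6 value. The edgeR fit held immune sums of calves 2 and 3 only. Its log2 difference was 3.87 ± 0.69 against epithelium (adjusted p = 0.000264, and a difference of 4.58 without calf 2). Against the mean of endothelial cells and fibroblasts it was 2.45 ± 0.62 (adjusted p = 0.00562). Endothelial cells had 0, 0.817 and 2.28 and fibroblasts 0, 2.60 and 4.89, and neither passed against epithelium. In calf 2 the immune value lay below the fibroblast value and below the limit of 3 UMIs, so immune cells led in calf 3 only.

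TLR5, the flagellin receptor, was the least counted of the 10 genes, with 118 UMIs in all kept cells. No TLR5 UMI was found in 1316 endothelial cells, which allows up to 0.472 CPM in their 6352209 UMIs and up to 0.228% of cells. Epithelial TLR5 was at 0.0988, 0.752 and 0.468 CPM, 0.471 over all calves, a level near the endothelial limit. Endothelial cells narrowly missed the edgeR threshold against epithelium (adjusted p = 0.05004). The call was the same in 6 of the 8 alternatives that gave a value. They passed as lower with no filter (edgeR adjusted p = 0.0321) and without the Harmony correction (edgeR adjusted p = 0.0470). Fibroblasts had 0, 11.7 and 1.96, from 0, 9 and 2 UMIs. Immune cells had 0, 4.88 and 4.70. Over all calves the fibroblast level was at least 12.4-fold and the immune level at least 9.87-fold higher than the endothelial limit. Both classes were higher than epithelium by the edgeR test, fibroblasts by 2.85 ± 0.77 (adjusted p = 0.00991) and immune cells by 2.95 ± 0.71 (adjusted p = 0.00395). TLR5 was also lower in endothelial cells than in fibroblasts (adjusted p = 0.00300) and higher in immune cells than in the mean of both (adjusted p = 0.0126). That mean includes the endothelial 0. Over all calves immune TLR5 was at 4.66 CPM, not above the 5.86 of fibroblasts. The call against the mean was lost with the DESeq2 Wald test (adjusted p = 0.0556) and in edgeR without the block (adjusted p = 0.0862). The fibroblast results rested on calf 2: without it the difference from epithelium was 1.61 (adjusted p = 0.582) and that from endothelial cells did not pass (adjusted p = 0.258).

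TLR3, the endosomal receptor for double-stranded RNA, was lowest in epithelium. Epithelial TLR3 was at 2.23, 3.19 and 6.56 CPM in calves 1, 2 and 3, and endothelial TLR3 at 10.1, 14.7 and 29.4. Within each calf the endothelial level was 4.53, 4.62 and 4.47 times the epithelial level. Fibroblasts had 34.3, 11.7 and 31.3, and immune cells 0, 17.1 and 47.8. All endothelial and fibroblast sums lay above the highest epithelial sum. The edgeR log2 difference from epithelium was 1.82 ± 0.29 in endothelial cells (adjusted p = 7.36e-05), 1.85 ± 0.35 in fibroblasts (adjusted p = 0.000526) and 2.52 ± 0.33 in immune cells (adjusted p = 1.36e-05). The fibroblast and immune calls were lost without calf 3 (adjusted p = 0.0509 and 0.0948), while the endothelial call held in all 10 alternative analyses. Immune cells did not pass against the mean of endothelial cells and fibroblasts (0.68 ± 0.30, adjusted p = 0.0993).

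MYD88, the adaptor shared by most TLRs, was found in every class but was at 0 in the 23 fibroblasts of calf 1. Epithelial MYD88 was at 15.8, 18.3 and 20.5 CPM. Immune cells had 142, 73.2 and 61.4, endothelial cells 20.2, 47.0 and 44.2, and fibroblasts 0, 23.4 and 32.3. Only the immune sums were clear of all epithelial sums, since the endothelial sum of calf 1 lay within the epithelial range. The edgeR log2 difference from epithelium was 1.36 ± 0.28 in immune cells (adjusted p = 0.000925) and 0.68 ± 0.24 in endothelial cells (adjusted p = 0.0298). The endothelial call was lost without calf 2 (adjusted p = 0.348), without calf 3 (adjusted p = 0.145) and in 3 of the 8 other alternatives. Fibroblasts differed from epithelium by −0.07 ± 0.31 (adjusted p = 0.904), and by 0.02 with DESeq2 size factors. Immune MYD88 exceeded the mean of endothelial cells and fibroblasts by 1.05 ± 0.26 (adjusted p = 0.00539), a call lost without calf 3 (adjusted p = 0.0503).

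NOD1, a cytosolic sensor of peptidoglycan, was higher in endothelial and immune cells than in epithelium. Epithelial NOD1 was at 1.74, 1.99 and 1.80 CPM. Endothelial cells had 5.05, 8.17 and 8.83, and immune cells 40.6, 21.9 and 29.0. The ranges of these 3 classes did not overlap. The edgeR log2 difference from epithelium was 1.72 ± 0.43 in endothelial cells (adjusted p = 0.00384) and 3.52 ± 0.47 in immune cells (adjusted p = 2.02e-05), and the endothelial call was lost without calf 3 (adjusted p = 0.103). Fibroblasts held 1 NOD1 UMI in 777 cells, in calf 1, a level of 0.532 CPM (0.0135 to 2.97). That calf's fibroblast sum was the one rich in epithelial transcripts. Fibroblasts did not pass against epithelium (−2.21 ± 1.24, edgeR adjusted p = 0.185). They passed as lower in 3 alternatives. Among these were sums of at least 50 cells, which leave out calf 1's fibroblasts (−8.31, edgeR adjusted p = 0.0273). In summed counts the endothelial level was 15.7 times the fibroblast level (2.69 to 631) and the immune level 53.5 times (9.41 to 2130). NOD1 was higher in endothelial cells than in fibroblasts by the edgeR test (adjusted p = 0.0119), though not without calf 2 (adjusted p = 0.0832) or calf 3 (adjusted p = 0.298). It was also higher in immune cells than in the mean of both (adjusted p = 0.000129, and 0.0919 without calf 3).

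NOD2, the muramyl dipeptide sensor, ran the other way and was the only one of the 10 past the test as lower in endothelial cells and fibroblasts than in epithelium. Epithelial NOD2 was at 7.84, 8.42 and 20.3 CPM. Endothelial cells had 2.53, 7.36 and 5.70, below every epithelial sum, and fibroblasts 0, 6.51 and 9.78. Within each calf both classes lay below the epithelium, although the 0 in fibroblasts of calf 1 allows up to 34.3 CPM. The edgeR log2 difference was −1.50 ± 0.37 for endothelial cells (adjusted p = 0.00336) and −1.25 ± 0.46 for fibroblasts (adjusted p = 0.0419). The endothelial call held in all 9 alternatives that gave a value (−2.21 without calf 2), whereas the fibroblast call was lost in 7 of 9, among them without calf 1 (adjusted p = 0.0774) and without calf 2 (adjusted p = 0.0730). Immune cells had 0, 12.2 and 12.7 and did not pass against epithelium (−0.56 ± 0.41, adjusted p = 0.291). In calf 3 the epithelial level was 160% of the immune level.

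**Figure D2:**
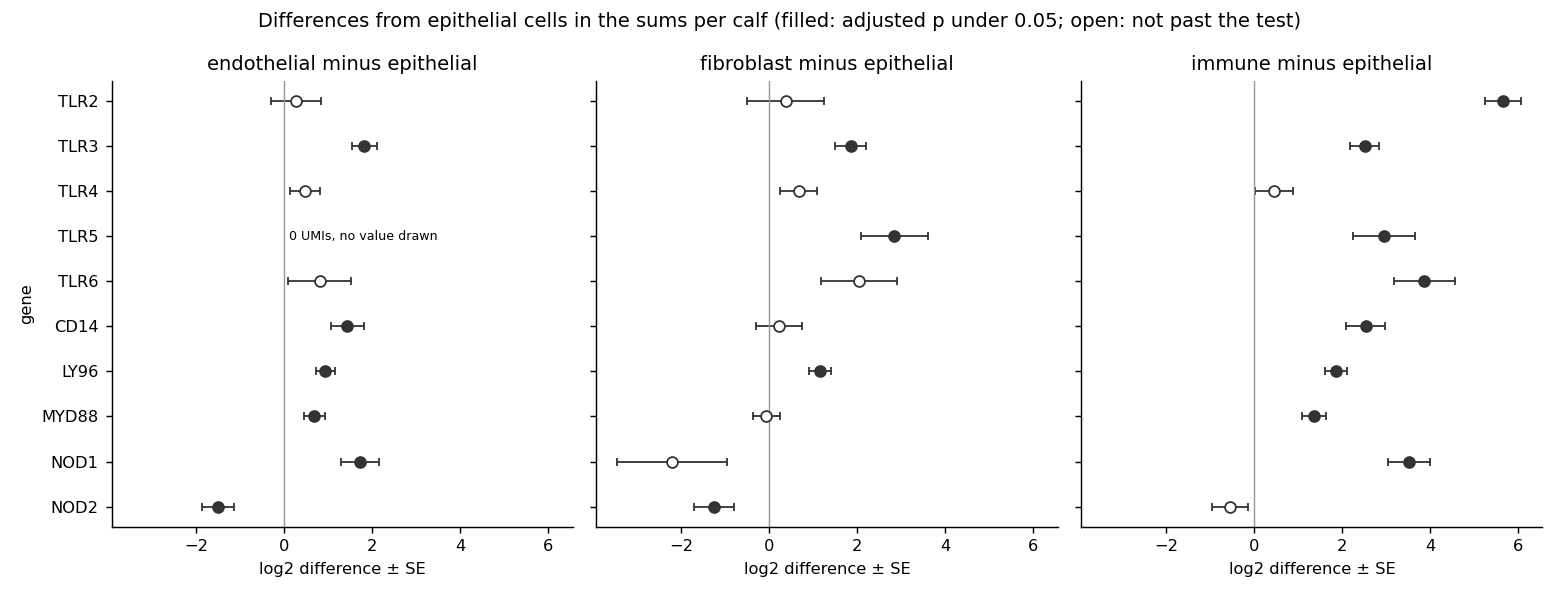
Log2 difference with its standard error for each of the 10 genes in the class comparisons, filled where the edgeR adjusted p was under 0.05. TLR2 shows 5.66 for immune against epithelial cells, and NOD2 is the only gene past the test below 0 against epithelium, at −1.50 in endothelial cells and −1.25 in fibroblasts.

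RNA released from broken cells gives UMIs in cells that do not make it, so the epithelial values were set beside genes of other classes. The leukocyte surface genes PTPRC and CD52 were at 0% to 0.0566% and 0.140% to 1.37% of their immune level in epithelium. PECAM1 and CLDN5 were at 0.0251% to 0.0635% and 0.0214% to 0.0858% of their endothelial level, and COL3A1 and DCN at 0.00853% to 0.0567% and 5.77% to 10.7% of their fibroblast level. Epithelial TLR2 stood at 0.877%, 0.851% and 2.55% of the immune level in calves 1, 2 and 3, and CD14 at 3.77%, 4.41% and 29.6%. NOD1 stood at 4.29%, 9.08% and 6.19%. TLR4 in calf 1 was at 7.89%, TLR5 in calf 3 at 9.95% and TLR6 in calf 3 at 3.26%. All other percentages of the 10 genes lay above 10.7%, where the immune sum held a UMI. The range of the reference genes over the calves thus included TLR2 and NOD1 in each calf and CD14 in calves 1 and 2. It passed 1.37% only through DCN, however. Without DCN, TLR2 of calf 3 and CD14 and NOD1 of each calf lay above it. CD14 of calf 3 lay above the whole range, but was set against an immune level of 42.0 CPM, beside 487 and 129 in calves 1 and 2. Within the immune class, T or NK-like cells served as cells that should lack CD14, TLR2 and TLR4. Among 289 such cells (median 2576 UMIs) 2 had a CD14 UMI, 1 a TLR4 UMI and none a TLR2 UMI, shares of 0.692%, 0.346% and at most 1.04%. Epithelial cells (median 7694.5 UMIs) held CD14 in 7.56% and TLR4 in 5.11%. For TLR2 the epithelial share of 0.794% lay below that limit, so epithelial TLR2 cannot be told from background by this measure. After thinning, TLR4 was in 0 of 221 T or NK-like cells and CD14 in 0.452%, against 1.24% and 1.88% of epithelial cells.

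The immune cells comprised 298 dendritic-like, 112 macrophage-like, 289 T or NK-like and 28 plasmacytoid dendritic-like cells, with 73 left unnamed. Calf 3 gave most of them (271, 92, 262 and 28), so the values that follow are from calf 3 unless stated and differences between these subtypes were not tested. CD14 was at 318 CPM (268 to 375) in macrophage-like cells, 2.15 (0.585 to 5.49) in dendritic-like cells and 2.45 (0.297 to 8.86) in T or NK-like cells. The dendritic-like and T or NK-like levels lay below the 12.4 CPM of the epithelium of calf 3. The macrophage-like level was 148 times the dendritic-like one (56.7 to 552), and calves 1 and 2 gave 714 and 542 in 5 and 15 macrophage-like cells. TLR2 was at 75.6 CPM (63.7 to 89.2) in dendritic-like and 72.9 (50.2 to 102) in macrophage-like cells, with overlapping intervals and a UMI in 36.9% and 27.2% of the cells. It was at least 20.6-fold and 19.8-fold higher there than the limit of 3.68 CPM in T or NK-like cells, where no UMI was found. Thinning left TLR2 in 12.5% of dendritic-like and 15.9% of macrophage-like cells, which turned the order of the shares.

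Among the named immune subtypes of calf 3, the receptors TLR4, TLR5 and TLR6 had their highest level in macrophage-like cells. TLR4 was at 35.3 CPM there (20.2 to 57.4) against 8.58 in dendritic-like cells, 4.12 times (1.93 to 8.80). TLR5 was at 26.5 (13.7 to 46.3) against 2.68, 9.89 times (3.24 to 35.8), and TLR6 at 50.8 (32.2 to 76.2) against 15.0, 3.38 times (1.86 to 6.09). The 5 and 15 macrophage-like cells of calves 1 and 2 held no TLR6 UMI. In calf 3 T or NK-like cells held 1 UMI of TLR4, none of TLR5 and 2 of TLR6. LY96 and NOD1 were instead close in the 2 myeloid subtypes, LY96 at 110 and 104 and NOD1 at 39.7 and 59.6 in dendritic-like and macrophage-like cells, with overlapping intervals. T or NK-like cells had 24.5 CPM of LY96 and 2.45 of NOD1. TLR3 was at 64.4 in dendritic-like, 44.2 in macrophage-like, 54.7 in plasmacytoid dendritic-like and 13.5 in T or NK-like cells, the first 3 with overlapping intervals. NOD2 was at 15.6 and 19.9 in dendritic-like and macrophage-like cells and at 3.68 in T or NK-like cells, the last from 3 UMIs.

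MYD88 had another order. Plasmacytoid dendritic-like cells, the cell type known for interferon release through endosomal TLRs, had 172 CPM (108 to 260) with a UMI in 53.6% of 28 cells. Macrophage-like cells had 108 (80.1 to 143), dendritic-like cells 51.5 (41.7 to 62.9) and T or NK-like cells 46.6 (33.0 to 64.0). The plasmacytoid level was 3.34 times the dendritic-like level (2.00 to 5.35). In those 28 cells TLR2, TLR4, TLR5, CD14, NOD1 and NOD2 were all at 0, which allows up to 23.4 CPM each. Within the dendritic-like cells, the cluster of 57 cells led by CLEC9A and BATF3 held no TLR4 or CD14 UMI but had 56.5 CPM of TLR2 and 72.9 of TLR3. The other cluster, of 241 cells led by FCER1A, had 80.2 of TLR2, 58.0 of TLR3 and 11.7 of TLR4.

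**Figure D3:**
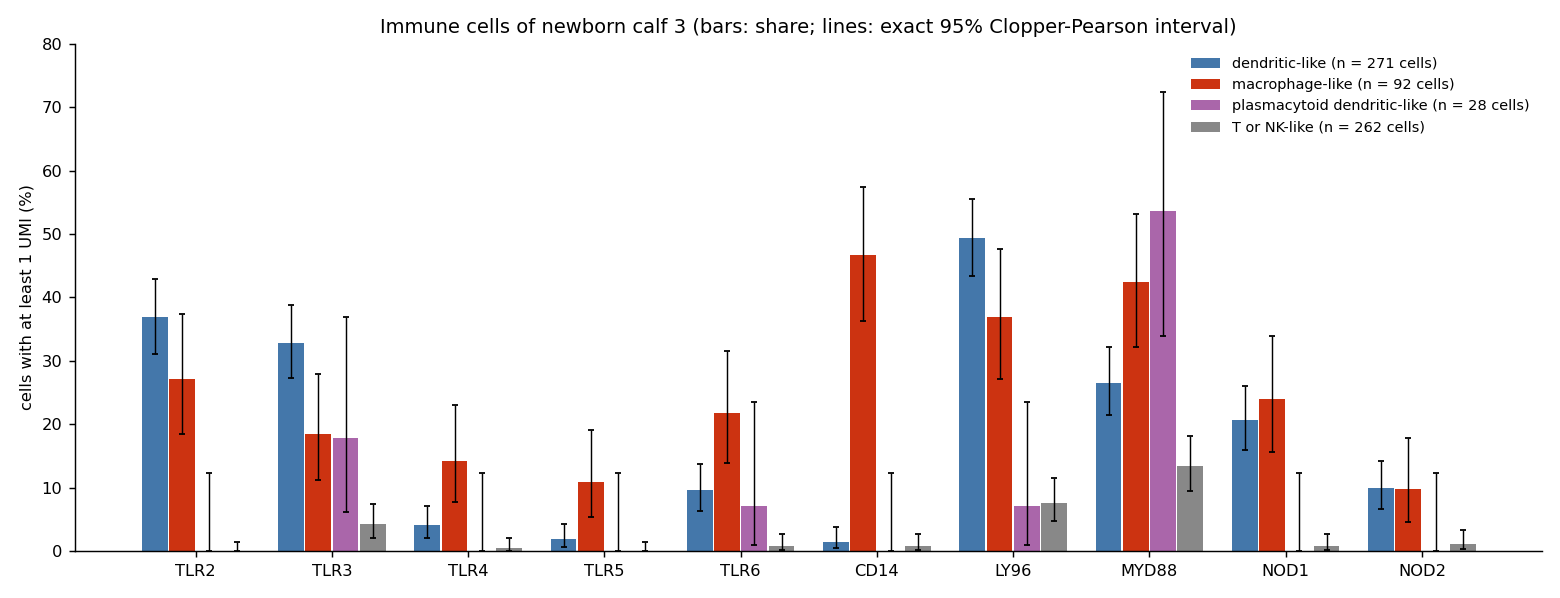
Share of cells with at least 1 UMI of each gene (percent) in the immune subtypes of calf 3, with exact 95% Clopper-Pearson intervals. CD14 is in 46.7% of macrophage-like and 1.48% of dendritic-like cells, whereas TLR2 is in 27.2% and 36.9% and in none of the T or NK-like cells.

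Endothelial cells split into 2 clusters with different CD14 and NOD1 levels. The larger, led by PLVAP and VWF (961 cells), had CD14 at 49.5, 54.5 and 37.3 CPM in calves 1, 2 and 3. The smaller, led by CLDN5, APOA1 and SOX17 (355 cells), had 0, 17.9 and 12.8, below the larger cluster in calves 2 and 3. The 0 of calf 1, in 17 cells, allows up to 41.3 CPM, so it gives no order. For NOD1 the order was the opposite, with 3.09, 6.0 and 6.21 in the larger and 13.8, 17.9 and 14.6 in the smaller cluster, the calf 1 values from 1 UMI each. LY96 was also higher in the smaller cluster of each calf, at 41.3, 46.9 and 56.6 against 24.8, 42.0 and 39.3, with overlapping intervals. MYD88 had no common order, at 27.6, 44.7 and 48.4 in the smaller and 18.6, 47.5 and 42.2 in the larger cluster. In the fibroblast class, CD14 was at 36.7, 30.7 and 42.7 in the cluster led by CXCL14 and LUM and at 0, 0 and 3.89 in the myofibroblast or mural cluster led by ACTA2 and MYH11. TLR4 ran the other way, with 0, 3.41 and 6.10 in the first and 35.5, 23.1 and 17.5 in the second. Calf 1 gave only 10 and 6 cells of these clusters. The fibroblast contrasts rest on few UMIs (24 and 2 of CD14, 3 and 18 of TLR4), and no contrast between these clusters was tested.

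**Figure D4:**
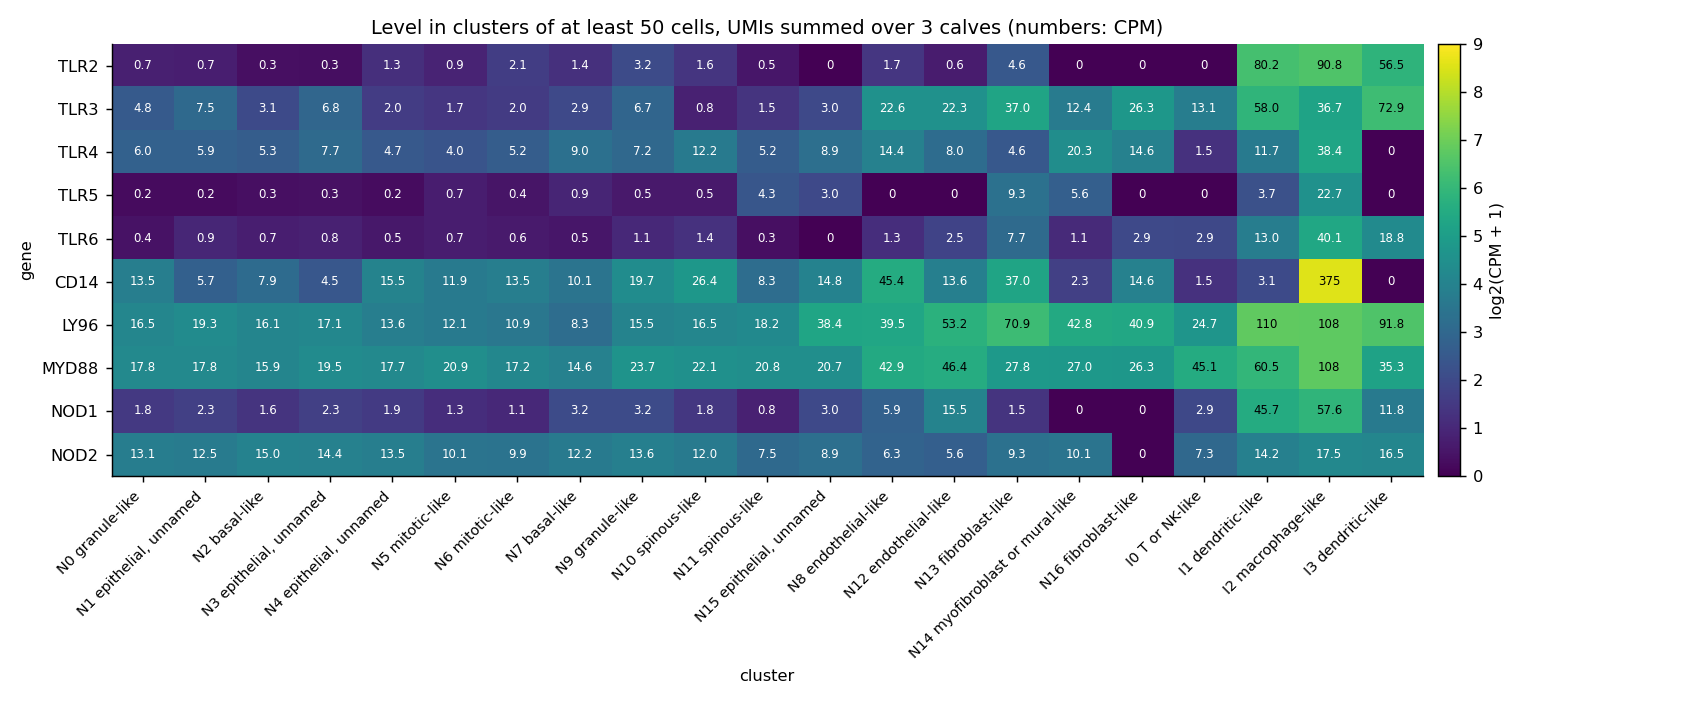
CPM of each gene, summed over the 3 calves, in the clusters with at least 50 cells, printed in each field and coloured by log2 of the level plus 1. CD14 is highest in the macrophage-like cluster at 375 CPM, and NOD2 is spread over the epithelial clusters.

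Epithelial clusters were given layer names from markers, 3494 cells as basal-like, 1252 as spinous-like, 6399 as granule-like and 2207 as mitotic-like. The remaining 7796 epithelial cells had no layer name. The basal-like and granule-like names are weak, because none of the 4 clusters behind them had a marker of its layer among its 10 leading genes. The larger granule-like cluster was led by immediate-early genes (ATF3, FOSB, EGR1), the other by chemokine genes (GRO1, CXCL3, CXCL2), and one basal-like cluster by mitochondrial genes. Median depth was 7084, 12061.5, 7572 and 13536 UMIs per cell in the basal-like, spinous-like, granule-like and mitotic-like cells. Layers were compared in 1 such edgeR fit over 11166 genes. TLR5 and TLR6 had too few counts for that fit, so 8 of the 10 genes were tested.

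Spinous-like cells, which lie above the basal layer, had 3 of the 8 genes higher and 1 lower than basal-like cells, with 35.3% of all genes past the test. CD14 was at 21.0, 20.4 and 13.3 CPM in spinous-like and 13.8, 3.23 and 11.3 in basal-like cells of calves 1, 2 and 3. It was higher in the spinous-like cells of each calf, by 1.42 ± 0.46 on the log2 scale (adjusted p = 0.0326), although the 2 layers overlapped across calves. Without calf 1 and without calf 2 the call was lost (adjusted p = 0.0588 and 0.0646, the latter at a difference of 0.55). TLR4 was at 7.14, 11.2 and 8.09 against 4.79, 6.03 and 6.73, clear of the basal-like range, with a difference of 0.75 ± 0.25 (adjusted p = 0.0372, and 0.0653 and 0.344 without calf 1 and calf 2). MYD88 was at 19.2, 23.8 and 20.1 against 12.6, 15.8 and 18.3, also without overlap, by 0.59 ± 0.14 (adjusted p = 0.00551, and 0.103 without calf 2). TLR3 was lower in spinous-like cells, at 0.446, 1.23 and 1.57 against 1.80, 2.29 and 5.41, by −1.29 ± 0.36 (adjusted p = 0.0167, and 0.150 without calf 3). Without the calf as a block none of the 8 passed (3 at an unadjusted p under 0.05).

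Within the spinous-like cells the 2 clusters differed. The cluster led by SPINK5 and KRTDAP had TLR4 at 7.97, 14.5 and 14.1 CPM and CD14 at 26.1, 29.6 and 18.8. The cluster led by FABP4 and KRT6A had TLR4 at 5.21, 6.55 and 3.29 and CD14 at 8.93, 7.53 and 8.94, lower in each calf for both genes. TLR5 went the other way in calf 2, where this second cluster had 8.51 CPM from 26 UMIs, against 0 and 0.941 in calves 1 and 3. All epithelial cells together held 88 TLR5 UMIs.

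In granule-like against basal-like cells none of the 8 genes passed the edgeR test, with 12.4% of all genes past the test. At an unadjusted p under 0.05 there were 2 (TLR3 at 0.64 ± 0.24 and MYD88 at 0.28 ± 0.13), and DESeq2 called none and had none at that level. Without calf 2, CD14 passed (adjusted p = 0.0230). TLR2 was at 2.14, 3.60 and 3.52 CPM in the chemokine-led granule-like cluster, from 4, 7 and 13 UMIs. These values lay above its whole-epithelium level in each calf, but the calf 1 interval (0.584 to 5.49) included that level. The spinous-like cluster led by SPINK5 also lay above it in calves 1 and 2, at 2.87 and 0.938. Mitotic-like cells had 1 of 8 genes past the test, where 30.4% of all genes passed. This was NOD2, at 6.21, 7.66 and 16.7 CPM against 10.6, 9.01 and 26.4 in basal-like cells, lower in each calf by −0.69 ± 0.15 (adjusted p = 0.00429). The call was lost without calf 1 (adjusted p = 0.0557), without calf 3 (adjusted p = 0.0508) and without the block.

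**Figure D5:**
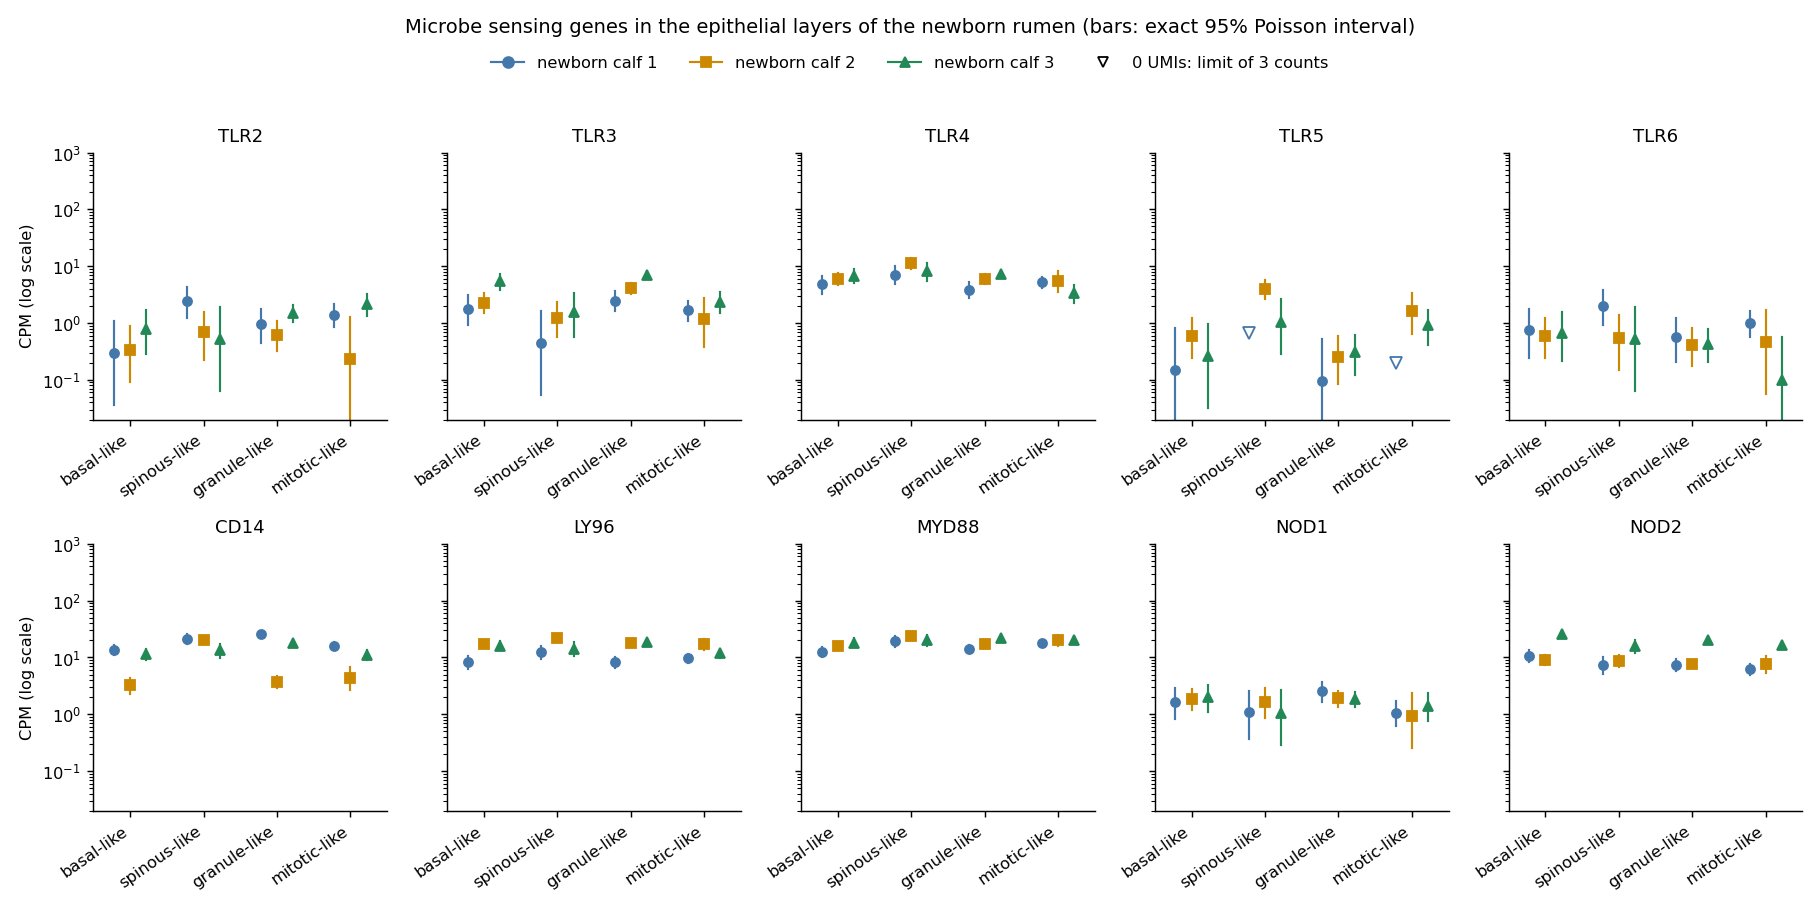
CPM (log scale) of each gene in the named epithelial layers of the 3 calves, with exact 95% Poisson intervals as bars and open triangles at the limit of 3 counts. Calf 3 is highest for NOD2 in all 4 layers, and calf 2 is low for CD14 in all layers but the spinous-like one.

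Some genes differed between calves in the same way across epithelium. NOD2 and TLR3 were highest in calf 3 in 4 of 4 layers, where the whole-epithelium levels spanned 2.59-fold and 2.94-fold. CD14 and TLR6 were highest in calf 1 in 4 of 4 layers, and LY96 and MYD88 were lowest in calf 1 in 4 of 4. TLR6 rested on 17, 15, 24 and 18 UMIs over all calves in basal-like, spinous-like, granule-like and mitotic-like cells. Spinous-like CD14 was close in calves 1 and 2, at 21.0 and 20.4 CPM. The CD14 range was 7.13-fold in granule-like cells (26.4, 3.71 and 17.9 CPM) but 1.58-fold in spinous-like cells. NOD1, at 1.15-fold, and MYD88, at 1.29-fold, varied least over the whole epithelium. With 1 library per calf, animal and library cannot be told apart.

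Detection of partners in the same cell was described without a test, since the cells of a calf share a library and deeper cells hold more of every gene. In epithelium LY96 was found in 14.6% (12.6 to 16.9) of the 1081 cells with a TLR4 UMI and in 12.4% of those without, with a median of 8741 and 7644 UMIs. CD14 was found in 10.7% and 7.39% of the same cells. Among immune cells TLR6 was found in 18.5% (12.7 to 25.7) of the 151 cells with a TLR2 UMI and in 4.31% (2.89 to 6.18) of those without, with a median of 7372 and 4163 UMIs. In macrophage-like cells CD14 was found in 8 of 18 cells with a TLR4 UMI, a share of 44.4%, and in 54.3% of those without.

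The wider sensing machinery was counted over 74 genes in 7 groups: other TLRs and their chaperones, LPS and peptidoglycan binding proteins, adaptors and kinases, NF-κB subunits and targets, inhibitors, other cytosolic sensors and C-type lectin sensors. Of the 58 tested between classes, 39 were higher and 1 lower in immune than in epithelial cells, and 33 were higher and none lower than in the mean of endothelial cells and fibroblasts, where 22.2% and 18% of all genes were higher. Against epithelium 21 were higher and 5 lower in endothelial cells, beside 46.0% of all genes past the test in either direction, so the number past the test was near the background. In fibroblasts 7 were higher and 9 lower, fewer than the 36.9% of all genes. Endothelial cells had 16 higher and 2 lower than fibroblasts, beside 26.6% of all genes. All 5 genes tested of the lectin list (CLEC4A, CLEC6A, CLEC7A, MRC1 and SYK, a kinase that signals for such lectins) were higher in immune cells than in epithelium. So were all 6 tested of the TLR list, namely TLR7, TLR8, LY86 and the chaperones or trafficking factors UNC93B1, CNPY3 and HSP90B1. The epithelium held 1 UMI of MRC1 (a mannose receptor), 4 of CLEC6A and none of TLR8, against 347, 494 and 33 in immune cells.

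Among the NF-κB genes 9 of 11 were higher in immune and 8 of 11 in endothelial cells than in epithelium, beside 22.2% and 23.5% of all genes. In fibroblasts 1 was higher and 4 were lower, beside 18.8% and 18.1%. TNFAIP3, an inducible brake on NF-κB signalling, differed from epithelium by 4.31 ± 0.24 in immune cells, 2.04 ± 0.21 in endothelial cells and −1.23 ± 0.36 in fibroblasts (edgeR adjusted p = 1.53e-09, 1.09e-06 and 0.0143). Of the 15 adaptors and kinases, 5 were higher and none lower in endothelial cells, beside 46.0% of all genes past the test in either direction. The 5 were led by TIRAP (1.61 ± 0.40), which bridges TLR2 and TLR4 to MYD88, and RIPK2 (1.49 ± 0.27), the kinase of NOD1 and NOD2. In immune cells 6 were higher and none lower, beside 45.7% of all genes past the test, led by CARD9 (8.31 ± 0.37) and IRAK2 (3.58 ± 0.36). The inhibitors SIGIRR and TOLLIP were higher in endothelial cells by 1.46 ± 0.24 and 1.08 ± 0.20, and CYLD and OTULIN in immune cells by 1.28 ± 0.24 and 1.08 ± 0.34. CD36, a scavenger receptor that assists TLR2, was at 1048 UMIs in endothelial cells and 34 in the far larger epithelial class, a log2 difference of 9.50 ± 0.40 (adjusted p = 4.70e-11). LPS-binding and antibacterial BPI and LYZ were higher in immune cells (9.36 ± 0.57 and 8.62 ± 0.40). PGLYRP1, a peptidoglycan-binding protein, was lower in endothelial cells (−1.21 ± 0.46) and fibroblasts (−3.06 ± 0.81). Over all calves its immune level was also below the epithelial one, at 1.96 CPM from 8 UMIs against 12.8. Of the 12 other cytosolic sensors 7 were higher and none lower in immune cells. In endothelial cells 5 were higher, led by IFIH1 and ZBP1 (3.48 ± 0.33 and 3.75 ± 0.62), and 2 were lower. The shares of all genes past the test were 45.7% for immune and 46.0% for endothelial cells.

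Of the 46 sensing genes tested between layers, 8 were higher and 8 lower in spinous-like than in basal-like cells, near the 35.3% of all genes past the test. LBP, which carries lipopolysaccharide to CD14, was higher by 5.17 ± 0.55 (adjusted p = 4.12e-05, 149 against 7 UMIs), and PGLYRP1 was lower by −1.82 ± 0.30 (adjusted p = 0.000855). RIPK2 and IRAK1 were also higher in spinous-like cells, by 0.64 ± 0.13 and 0.77 ± 0.16. In granule-like cells 5 were higher and 1 lower, again near the background of 12.4%, with TNFAIP3 at 2.84 ± 0.30, NFKBIZ at 1.50 ± 0.28, IRAK2 at 1.29 ± 0.27 and PGLYRP1 at 0.84 ± 0.20 above basal-like cells. In mitotic-like cells 3 were higher and 7 lower, fewer than the 30.4% of all genes, led by the DNA sensor CGAS at 1.63 ± 0.31 and by NFKB2 at −0.81 ± 0.13.

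The genes whose pattern was most like each receptor were found over 21 clusters of at least 50 cells, as Pearson's r of log2 levels with all calves summed, and are given without a test because the clusters share libraries. TLR2 was most like MPEG1 (r = 0.985) and LRRC25, and TLR6 was most like F13A1 (r = 0.966), ENO3 and SOAT1. NOD1 was most like PTAFR (r = 0.964), FGR and ANKRD37, and TLR3 most like GSDMD (r = 0.954) and ZMIZ1. LY96 was most like SKAP2 (r = 0.943), TRMT10B and SNX3, and MYD88 most like DERA (r = 0.938), SFT2D1 and TMEM189. Closest to NOD2 were CCDC51 (r = 0.867), PRPSAP2 and CPPED1, and closest to TLR5 were KLHL8 (r = 0.835), IL17RA and SLC35F6. The weakest likenesses were those of TLR4, at 0.820 with an unnamed gene and 0.805 with SLC38A6, and of CD14, at 0.807 with CEPT1 and 0.790 with SLC38A6.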

How the data were processed

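Per the labels, 1 library from each of 3 newborn calves was processed by the authors with Cell Ranger (version 3.1.0 in the submitters' processing notes) against ARS-UCD1.2. The deposited values are raw UMI counts per gene and barcode, with no normalization. The members and lists were chosen with earlier results of these data known. Barcodes were kept with 500 to 4000 genes, no more than 50000 UMIs and a mitochondrial share of 40% or less (13 protein-coding genes). The expected number of doublets, 0.8% per 1000 barcodes, was removed by the share of simulated doublets among a cell's neighbours (191, 908 and 879 cells). Cells were clustered with scanpy 1.11.5 and leidenalg 0.10.2 after a Harmony correction for the calf (written for this work), on 2000 variable genes without 84 sensing genes, at resolution 0.1 and then 0.8, and named from markers. Counts were summed per calf and class in sums of at least 10 cells. These were tested with edgeR 4.0.16 in R 4.3.3 (TMM, filterByExpr, quasi-likelihood, calf as a block because classes of a calf come from 1 animal and library). Shares were thinned at 2000 UMIs per cell, leaving out shallower cells. All 10 members are named. Of each list, at most 2 genes per comparison with the largest difference past the test are named, together with the genes most like each member (log2 of CPM plus 5, genes with at least 200 UMIs). The alternatives were DESeq2 1.42.0 size factors and Wald test, no filter, no block, each calf left out, sums of at least 50 cells, doublets kept, no Harmony and resolution 0.4. The summed depth was 51155962, 71410184 and 76551487 UMIs in calves 1, 2 and 3. The test was tried on simulated data first. No sequences or coordinates are given, since a genome of this build was not used here.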

Additional observations from a re-analysis of the deposited data

How the results depend on the processing

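Of the 74 member differences tested, 32 passed the edgeR threshold. Under the alternatives 13 of these were never lost, 19 were lost at least once and none changed sign. Leaving out each calf gave 3 to 6 members past the test for endothelial against epithelial cells, 1 to 4 for fibroblasts, 5 to 8 for immune cells, 2 to 7 for immune cells against the other stroma, 0 to 2 for endothelial cells against fibroblasts, 1 to 3 for spinous-like, 0 to 1 for granule-like and 0 to 1 for mitotic-like against basal-like cells. Without calf 2 or without calf 3 only 1 immune sum was left, and it was assumed to vary like the other classes. Without the calf as a block, spinous-like and mitotic-like cells had 0 past the test, and the 5 class counts became 5, 3, 8, 5 and 2. Blocking needs no shared number, since the classes of a calf come from 1 animal. With doublets kept, fibroblasts had 2 past the test against epithelium, endothelial cells 1 against fibroblasts and mitotic-like cells 2. Mitotic-like cells had 2 with DESeq2 size factors, 2 with no filter and 4 at resolution 0.4. The 17 differences that changed sign had not passed. Fibroblast MYD88 became 0.0218 with size factors, 0.0279 without the block and 0.0530 in sums of at least 50 cells. TLR3 between endothelial cells and fibroblasts became 0.0214 with no filter and 0.102 in sums of at least 50 cells. TLR4 between immune cells and stroma became 6.26e-06 with DESeq2 and 0.184 with doublets kept. With doublets kept, TLR2 became −0.0949 for fibroblasts against epithelium, 0.262 for endothelial cells against fibroblasts, −0.342 for granule-like and −0.723 for mitotic-like cells, CD14 −0.178 for mitotic-like cells, and NOD1 and NOD2 0.118 and 0.262 for spinous-like cells. At resolution 0.4, granule-like TLR3, TLR4 and NOD1 became −0.119, −0.138 and −0.0468. Leaving out a calf turned MYD88 in fibroblasts (−0.401 to 0.108), TLR3 (−0.279 to 0.1001), TLR4 (−0.734 to 0.0177), TLR2 (−0.275 to 0.289) and LY96 (−0.473 to 0.1002) in endothelial cells against fibroblasts, TLR2 in endothelial cells (−0.0206 to 0.742), CD14 in fibroblasts (−0.0342 to 0.441), TLR4 in immune cells against stroma (−0.289 to 0.478), CD14 in mitotic-like cells (−0.0156 to 0.169) and TLR4 in granule-like cells (−0.0398 to 0.159). The cause of these changes was not tested. TLR5 and TLR6 gave no value under 2 of the 10 alternatives. Depth limits TLR5 most, with 118 UMIs in all, the 9 immune cells of calf 1 leave that class to 2 animals, and the fibroblast sum of calf 1 rests on 23 cells.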

Other observations

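Barcodes outside the gene limits were not part of any comparison. Barcodes with over 4000 genes (797, 187 and 637 in calves 1, 2 and 3) had 17.6, 8.94 and 15.5 CPM of CD14, beside 18.4, 5.69 and 12.4 in the epithelium. Their NOD2 was at 8.41, 7.28 and 16.9, beside 7.84, 8.42 and 20.3. Barcodes with under 500 genes (1797, 1119 and 476) had 4.68, 5.06 and 28.2 CPM of CD14, below the epithelial level in calves 1 and 2 and above it in calf 3. Their TLR2 was at 0, 0.506 and 6.27, from 0, 1 and 4 UMIs, and their LY96 at 1.17, 10.6 and 4.70, below the epithelial level in each calf.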
